A study of Mus musculus with 81 samples.

Results

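The comparison set the 10 thymic lymphomas with the most uneven expression between chromosomes against the 10 with the least uneven, out of 31 lymphoma-bearing mice. In each mouse, the median log2 difference from normal thymus was taken over the expressed genes of each autosome, and the standard deviation (SD) of the 19 medians was called its imbalance. The members were thus chosen on measured expression of autosomal genes, and their imbalance and autosome medians are given below as a description. The series asked how aneuploidy affects tumour development. All mice were of a C57BL/6 x 129S4Sv/Jae background and carried Plk4(Col1a1), rtTA(Rosa) and centrin-GFP(Rosa) alleles, and in the treated mice doxycycline was given over 2 weeks, starting on day 30 of age. Ages at tumour collection are not given in the sources used here. RNA came from 1 frozen biopsy, or from 4 or 5 biopsies whose counts were summed, so that the mouse was the replicate.

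The 10 most imbalanced mice were 5 treated p53+/- mice (905, 24, 884, 266 and 309), 4 treated p53-/- mice (870, 869, 653 and 490) and 1 untreated p53-/- mouse (120). The 10 least imbalanced mice were 6 untreated p53-/- mice (562, 643, 881, 899, 98 and 157), 3 treated p53+/- mice (862, 280 and 908) and 1 treated p53-/- mouse (857). The reference was the thymus of 8 untreated p53+/+ mice with the same 3 transgenes, so treated members differ from it in treatment as well. The labels name no promoter that would limit the transgenes to the thymus.

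Thymic lymphoma arises from developing T cells, and in mice that lack p53 it commonly carries extra copies of a few chromosomes. p53 halts or kills cells after faulty divisions. Centriole duplication is triggered by the kinase Plk4, and too much of it gives extra centrosomes and missegregated chromosomes. Cells with extra or missing chromosomes generally transcribe the genes on them in rough proportion to copy number, so an uneven profile between chromosomes is commonly used as a reading of aneuploidy from RNA, although it is not a count of chromosomes. Copy number itself was not analysed here.

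Imbalance ran from 0.2817 in mouse 905 to 0.3356 in mouse 490 among the most imbalanced mice, with a median of 0.3016. Among the least imbalanced mice it ran from 0.1058 in mouse 562 to 0.2322 in mouse 857, with a median of 0.2128. The lymphomas just outside the sets stood at 0.2770 (mouse 497) and 0.2368 (mouse 325), so neither boundary was marked by a gap. The 8 normal thymuses lay between 0.0163 and 0.0431, below all 20 members. The least imbalanced mice were therefore less uneven than the other lymphomas, but not balanced. In the 4 most imbalanced mice with 4 biopsies each, single biopsies stood between 0.246 and 0.329. In the 5 least imbalanced mice with 4 or 5 biopsies, they stood between 0.142 and 0.270. Mouse 862 had the widest spread of any member, from 0.142 to 0.270 over its 5 biopsies.

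**Figure D1:**
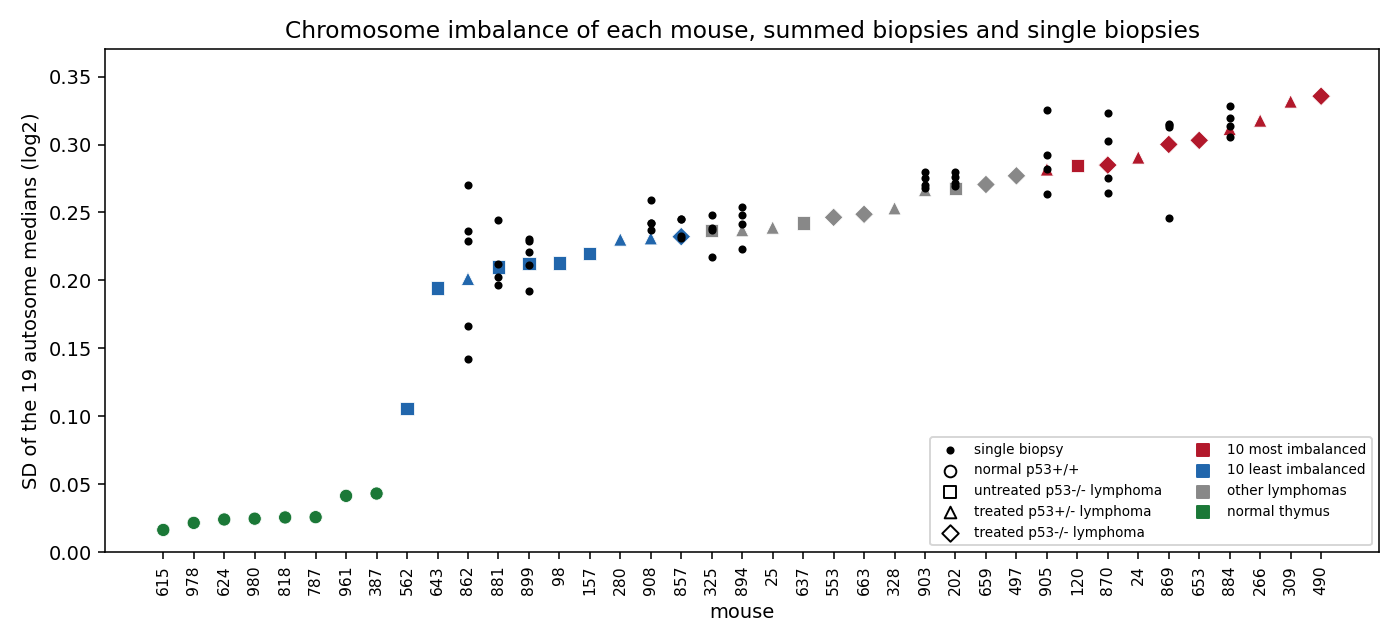
Imbalance (SD of the 19 autosome medians, log2) of each mouse, ordered from low to high, with colour for the set and shape for the labelled group. Small black points are single biopsies of mice with several; the 8 normal thymuses lie at or below 0.0431, and mouse 562 lies alone at 0.1058 between them and the other lymphomas.

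The same chromosomes stood apart in both sets. Chromosome 5 lay above all 8 normal thymuses in 10 of 10 most and 10 of 10 least imbalanced mice, and chromosomes 6 and 7 lay below them in all 20. The highest autosome of a most imbalanced mouse was chromosome 5 in 4 mice and chromosome 15 in 3 mice, and in the least imbalanced mice it was chromosome 15 in 4 and chromosome 5 in 3. Chromosome 6, which holds the T-cell receptor beta locus, was the lowest autosome in 6 mice of each set. The largest single value was on chromosome 5 of mouse 490, at 0.96 on the log2 scale. The most negative was on chromosome 19, at -0.73 in mouse 862 and -0.68 in mouse 120. Chromosome 4 lay above all normal thymuses in 10 most and 5 least imbalanced mice, and chromosome 14, which holds the receptor alpha and delta loci, in 9 and 5. Chromosome 15, which holds Myc, was above them in 10 and 9 mice. A median of 16.5 of the 19 autosomes lay outside the range of the normal thymuses in the most imbalanced mice, against 15.5 in the least imbalanced.

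**Figure D2:**
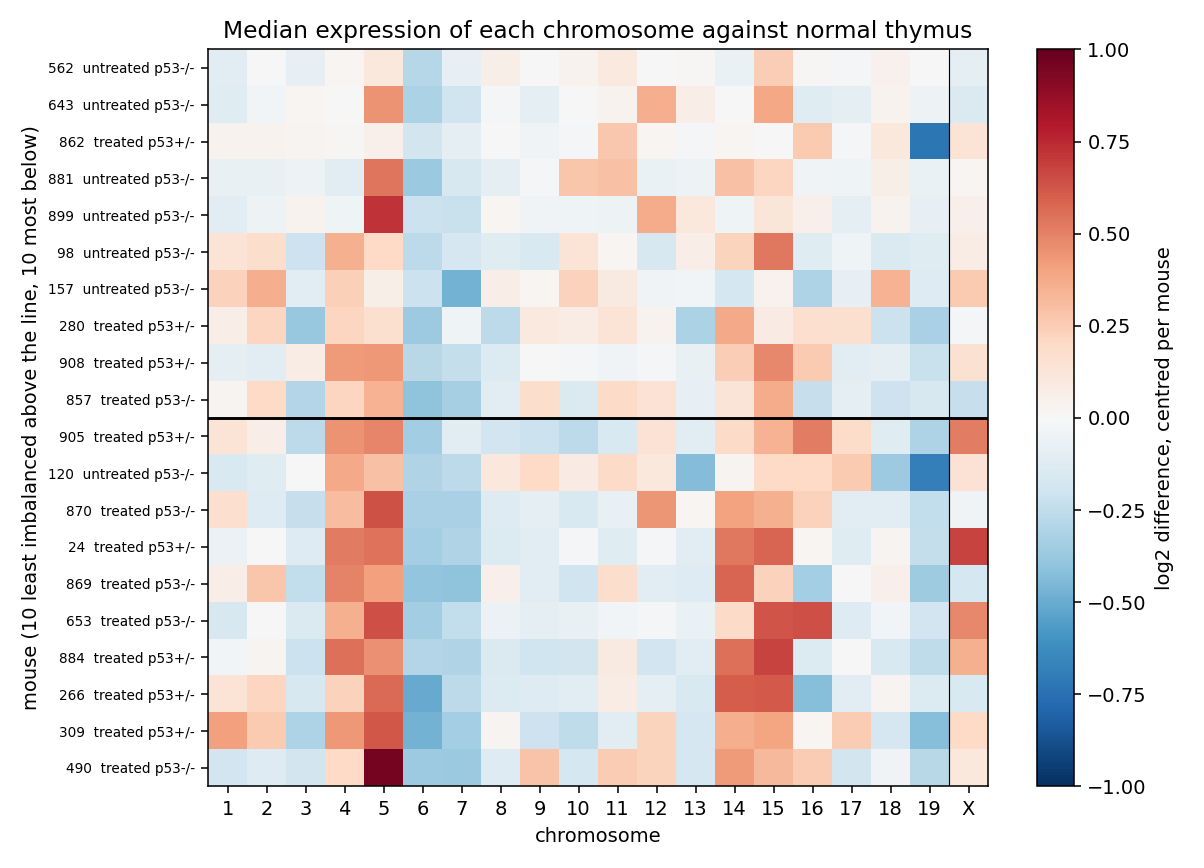
Median log2 difference from normal thymus of each autosome and the X chromosome (columns) in the 20 members (rows, least imbalanced above the line), centred on each mouse's median over autosomal genes. Chromosome 5 is red and chromosomes 6 and 7 are blue in every row, and chromosome 19 of mice 862 and 120 holds the darkest blue cells.

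Because the members were picked on these medians, each autosome was also compared between sets of 10 and 10 picked from the other 18 autosomes. These sets shared at least 16 of 20 mice with the original ones, and no mouse crossed from one set to the other. Of the 19 autosomes, 1 passed the test. Chromosome 10 averaged -0.13 ± 0.11 (SD, n = 10 mice) in the most imbalanced mice and 0.05 ± 0.13 (SD, n = 10) in the least imbalanced, a difference of -0.19 (two-sided permutation test, p = 0.00246, Benjamini-Hochberg adjusted p = 0.0467 over 19 autosomes). Of the most imbalanced mice, 6 lay below every least imbalanced mouse on chromosome 10, and mouse 120, at 0.08, was the highest. This comparison was added after seeing the data. The call was lost when any 1 of 16 mice was left out (98, 157, 266, 309, 490, 562, 643, 653, 862, 869, 870, 881, 884, 899, 905 or 908), with adjusted p from 0.051 to 0.102. It stayed without 24, 120, 280 or 857 (adjusted p from 0.00864 to 0.0461). Among treated mice alone the difference was -0.13 (9 against 4 mice, exact permutation test, p = 0.028, adjusted p = 0.292).

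The autosomes that stood highest did not pass. Between sets picked without them, chromosome 4 differed by 0.15 (adjusted p = 0.377), chromosome 5 by 0.12 (adjusted p = 0.407), chromosome 14 by 0.09 (adjusted p = 0.64) and chromosome 15 by 0.12 (adjusted p = 0.407), all by permutation test. Their values overlapped widely. Mice whose other chromosomes were little imbalanced reached 0.72 on chromosome 5, and those with strongly imbalanced other chromosomes began at 0.23. Values here are relative to each mouse's own autosomal median, so a lower autosome and higher ones elsewhere are not independent of each other.

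**Figure D3:**
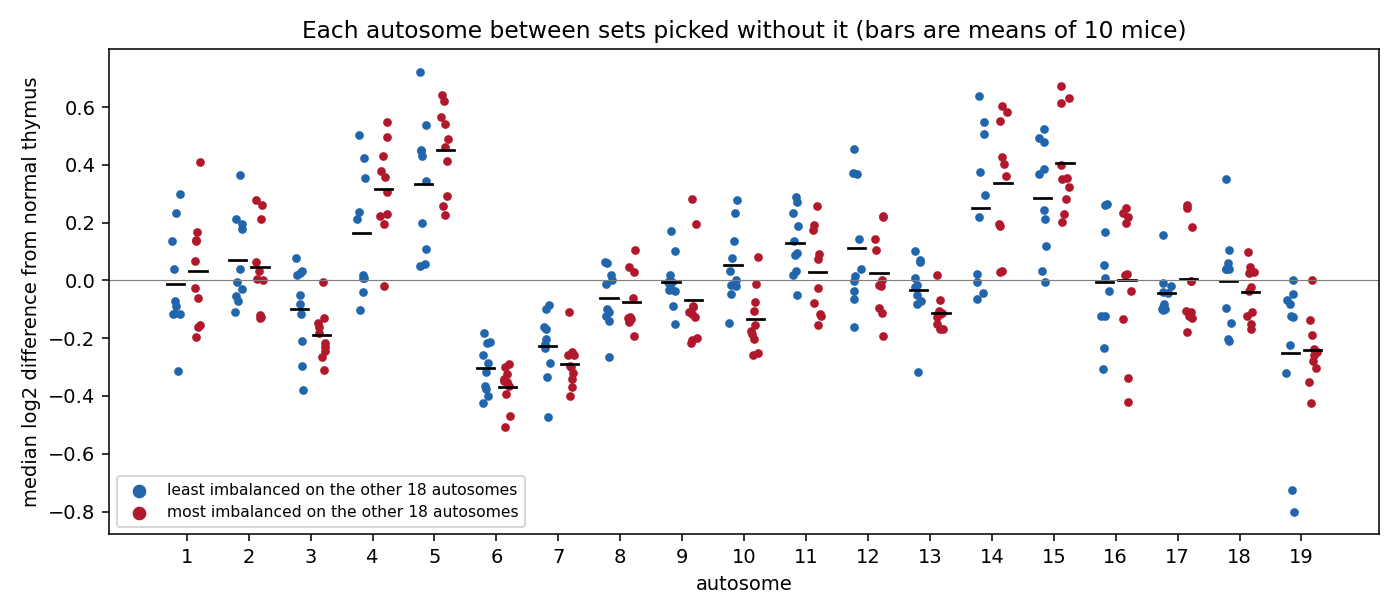
Median log2 difference from normal thymus of each autosome in mice that were least (blue) or most (red) imbalanced on the other 18 autosomes; bars are means of 10 mice. Chromosome 10 shows the largest separation, with means of 0.05 and -0.13, while the 2 colours overlap on chromosomes 5, 14 and 15.

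The sets also differed in their labels. Treated mice made up 9 of the 10 most and 4 of the 10 least imbalanced (Fisher's exact test, two-sided, p = 0.0573, adjusted p = 0.115 over 4 labels). Mice labelled female made up 9 and 3 (exact p = 0.0198, adjusted p = 0.0791), p53+/- mice 5 and 3 (exact p = 0.65) and mice with several biopsies 4 and 5 (exact p = 1). None passed after adjustment. By Xist and Y-linked genes, 7 and 3 were female, since mice 869 and 870 had male profiles and female labels. Treatment, sex and imbalance therefore cannot be fully told apart in these 20 mice, and the comparisons of genes below are given with the labelled sex as a covariate.

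Libraries that stood apart touch the results below. Mouse 881 had B-lineage markers (Cd79a, Pax5 and 6 others) summing to 8426 CPM (counts scaled to the mouse's total) and T-lineage markers (Cd3e, Lck and 6 others) to 328 CPM, against 2556 to 4333 CPM of T-lineage markers in the most imbalanced mice and 1961 to 4955 CPM in the other 9 least imbalanced. Mouse 881 was thus the single member low in T-lineage markers, below the 676 CPM of the lowest normal thymus, mouse 387, which was itself high in B-lineage (12050 CPM) and fat (8880 CPM) markers and is part of the normal mean. In mouse 643, 38.6% of counts lay on 3 genes that collect ribosomal RNA reads (CT010467.1, AY036118 and Lars2), against 0.132% to 1.29% in the other 19, which lowers its CPM of all other genes relative to a total without them. Mouse 120 was the single untreated member of its set. The total per mouse was 13241936 to 63678157 counts in the most and 10926575 to 98590603 counts in the least imbalanced mice, and the mean log2 totals differed by -0.15 (permutation test, p = 0.781). Whole-gene Trp53 counts were 15.4 to 45.6 CPM in p53+/- and 8.11 to 77.8 CPM in p53-/- members, against 59.8 to 130.3 CPM in normal thymus, so they do not check the genotype labels.

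No gene separated the sets after correction. Each autosomal gene was tested between the sets picked without its own chromosome, so that no gene was compared between mice chosen by its own chromosome. Of 15440 genes tested with edgeR's quasi-likelihood test, 0 were called at a Benjamini-Hochberg adjusted p under 0.05 (0%). The lowest adjusted p was 0.148. At an unadjusted p under 0.05, 474 genes (3.07%) were higher and 548 (3.55%) lower in the most imbalanced mice. DESeq2's Wald test called 63 genes on the same counts, 36 higher and 27 lower. Of the genes named below, those it called were Dnajc15, Ret, Hey1, Acsbg1, Zbtb16, Rora, Lonrf3, Mpzl2, Hmg20b, Pip5k1c, Ifi211, Phc2, Fbxw17, Cadm4, Amotl2, Klhl23 and Pvt1, with adjusted p from 5.72e-06 (Lonrf3 and Hmg20b) to 0.0291 (Acsbg1). The median difference over all genes was -0.02 on the log2 scale and the median standard error (SE) was 0.35. Genes are named below in order of their p-value and their biology, as the nearest to a difference and not as differences. CPM are given for the sets in which each gene was tested, as lowest, median and highest of 10 mice.

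Lonrf3, an X-linked gene for a RING-finger protein of the LON-domain family (ENSMUSG00000016239, X:36328353-36362341, GRCm38), showed the clearest separation among the genes with higher values. It was at 0.666, 19.7 and 30.1 CPM in the most imbalanced mice and at 0.0772, 0.674 and 12.8 CPM in the least imbalanced. Of the most imbalanced mice, 8 lay above every least imbalanced mouse. Mouse 266, at 11.5 CPM, lay below mouse 857 only, and mouse 309, at 0.666 CPM, lay among the least imbalanced. The 11 other lymphomas lay in between (1.13, 9.07 and 13.7 CPM), and normal thymus stood at 0.277 to 2.46 CPM. The log2 difference was 5.05 ± 1.25 (SE, edgeR adjusted p = 0.264). It was 5.77 without mouse 120 and 3.79 with sex taken from Xist and Y-linked genes. As an X-linked gene it was not part of the rule.

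Mpzl2, which encodes an epithelial and thymic adhesion protein (9:45039799-45054015), had the lowest p-value of all genes. It was at 0.150, 1.44 and 4.22 CPM in the most and had a median of 10.8 CPM in the least imbalanced mice, where mice 862 (524 CPM), 157 (303 CPM) and 280 (68.8 CPM) were highest and mouse 98 alone lay among the others. The other 11 lymphomas were at 1.04 to 5.20 CPM and normal thymus at 13.2 to 27.7 CPM. The log2 difference was -5.77 ± 1.04 (SE, edgeR adjusted p = 0.148), -4.15 without mouse 862 and -7.42 among treated mice alone, where it was called (edgeR adjusted p = 0.000344). With sex taken from Xist and Y-linked genes, the treated mice gave -5.98 and no call (edgeR adjusted p = 0.158). In mouse 862, 9 of the 14 nearest expressed genes around Mpzl2 (Kmt2a to Il10ra) were also more than 2-fold above the median lymphoma on the log2(CPM + 1) scale, with a median log2 difference of 1.14, against 6.31% of all expressed genes in that mouse.

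Pip5k1c, a kinase that makes the membrane lipid PIP2 (10:81292963-81319973), and Hmg20b, a subunit of a chromatin-repressing complex (10:81346048-81350480), are neighbours on chromosome 10. Pip5k1c was at 50.6, 67.9 and 82.2 CPM in the most and 68.3, 125 and 224 CPM in the least imbalanced mice, with 6 most imbalanced mice below all of the least. Hmg20b was at 24.1, 25.5 and 29.8 CPM against 22.5, 40.7 and 52.99 CPM. Its lowest value was in mouse 643, which lay below all of the most imbalanced mice, while the other 9 least imbalanced mice lay above them. The CPM of mouse 643 are lowered by the 38.6% of its counts on genes that collect ribosomal RNA reads, so its place below them cannot be taken at face value. The log2 differences were -1.05 ± 0.20 (SE, edgeR adjusted p = 0.188) and -0.71 ± 0.13 (SE, edgeR adjusted p = 0.148). Chromosome 10 held 98 of 743 tested genes at an unadjusted p under 0.05, 82 of them lower in the most imbalanced mice, beside 474 higher and 548 lower of all 15440 tested genes. Other chromosomes leaned either way, with 70 of 83 lower on chromosome 7, 70 of 94 on 11, 43 of 67 on 2 and 22 of 32 on 13, but 6 of 45 on 19, 6 of 27 on 16, 24 of 73 on 4 and 21 of 59 on 5. Against their own chromosome's median the differences were -0.80 and -0.49, neither called by limma.

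For 6 of the other 7 genes of the lower group, mouse 862 had the highest value in the least imbalanced set, and for Klhl23 it was mouse 157 (42.9 CPM, beside 39.9 CPM in mouse 862). Dock1, an activator of the small GTPase Rac, was at 92.05 CPM in mouse 862 and 60.5 CPM in mouse 157, against 2.59 to 8.22 CPM in the most imbalanced mice. Ifi211, an interferon-inducible gene of the DNA-sensing family, was at 318 CPM in mouse 862 and no higher than 25.7 CPM in the other 9 mice of the least imbalanced set picked without chromosome 1, which leaves out mouse 280 (69.6 CPM). Among treated mice alone Dock1 and Ifi211 were called (edgeR adjusted p = 0.00134 and 0.0386), but not with sex taken from Xist and Y-linked genes (edgeR adjusted p = 0.41 for both). Without mouse 862, Dock1's log2 difference went from -2.88 to -1.31, Ifi211's from -2.85 to -0.95 and that of Amotl2, a regulator of the Hippo pathway, from -2.67 to -0.39. Phc2, a Polycomb subunit, was the evenest of them, at 66.5, 88.9 and 136 CPM against 85.5, 155 and 191 CPM (log2 difference -0.77 ± 0.16 SE, edgeR adjusted p = 0.188), with 5 most imbalanced mice below all of the least. Fbxw17, Cadm4 and Klhl23 completed the 10, with differences of -2.25, -2.71 and -3.26 that were -1.77, -1.99 and -2.93 without mouse 862.

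Most genes of the higher group were led by mouse 120. Ret, the receptor of the glial-derived growth factors, was at 193 CPM there and at most 4.70 CPM in the other 9 most imbalanced mice, against 0 to 0.868 CPM in the least imbalanced. Zbtb16, the transcription factor of innate-like T cells, was at 166 CPM in mouse 120 and at most 9.22 CPM in the others. Il18r1, a receptor subunit for interleukin-18, stood at 361 CPM against at most 15.7 CPM, and Cxcr6, a homing receptor, at 212 against at most 5.83 CPM. Acsbg1 and Cxcr3, a homing receptor encoded on the X chromosome, were also highest in mouse 120, at 111 and 161 CPM. These values were not all particular to mouse 120. Mouse 202, an untreated p53-/- lymphoma outside both sets, held 190 CPM of Zbtb16, 150 CPM of Il18r1 and 51.5 CPM of Cxcr6. It also held 49.7 CPM of Acsbg1 and 32.4 CPM of Cxcr3, but 2.32 CPM of Ret. Without mouse 120 the log2 difference of Ret went from 4.39 to 2.05, that of Zbtb16 from 3.35 to 1.55, that of Il18r1 from 3.84 to 1.85 and that of Cxcr6 from 3.61 to 1.21, and 0 genes were called by edgeR.

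Dnajc15, a mitochondrial co-chaperone, Rora, a nuclear receptor of T-cell differentiation, and Hey1, a transcriptional repressor, were higher in more than 1 of the most imbalanced mice than in any of the least. The same held for Ret (6 mice), Zbtb16 (4 mice), Il18r1 (2 mice) and Cxcr6 (2 mice). Mouse 120 was the highest for Dnajc15, Rora and Hey1 too. Dnajc15 was at 17.9, 90.8 and 286 CPM against 9.49, 34.3 and 61.4 CPM, with 7 most imbalanced mice above all of the least, and a log2 difference of 1.93 ± 0.41 (SE, edgeR adjusted p = 0.188) or 1.28 without mouse 120. Normal thymus stood at 59.7 to 126 CPM, so every most imbalanced mouse but 120 lay within or below its range. Rora was at 6.86, 21.95 and 123 CPM against 2.11, 5.14 and 16.5 CPM, with mice 120 and 884 both at 123 CPM. Hey1 was at 1.62, 3.24 and 21.5 CPM against 0.833, 1.30 and 4.67 CPM, with 4 mice above all of the least, and normal thymus at 7.05 to 32.1 CPM. Tceal8, an X-linked gene, was at 59.2 CPM in mouse 862 and 33.9 CPM in mouse 157 and at most 5.60 CPM in the other 18 members, against 9.13 to 20.7 CPM in normal thymus.

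**Figure D4:**
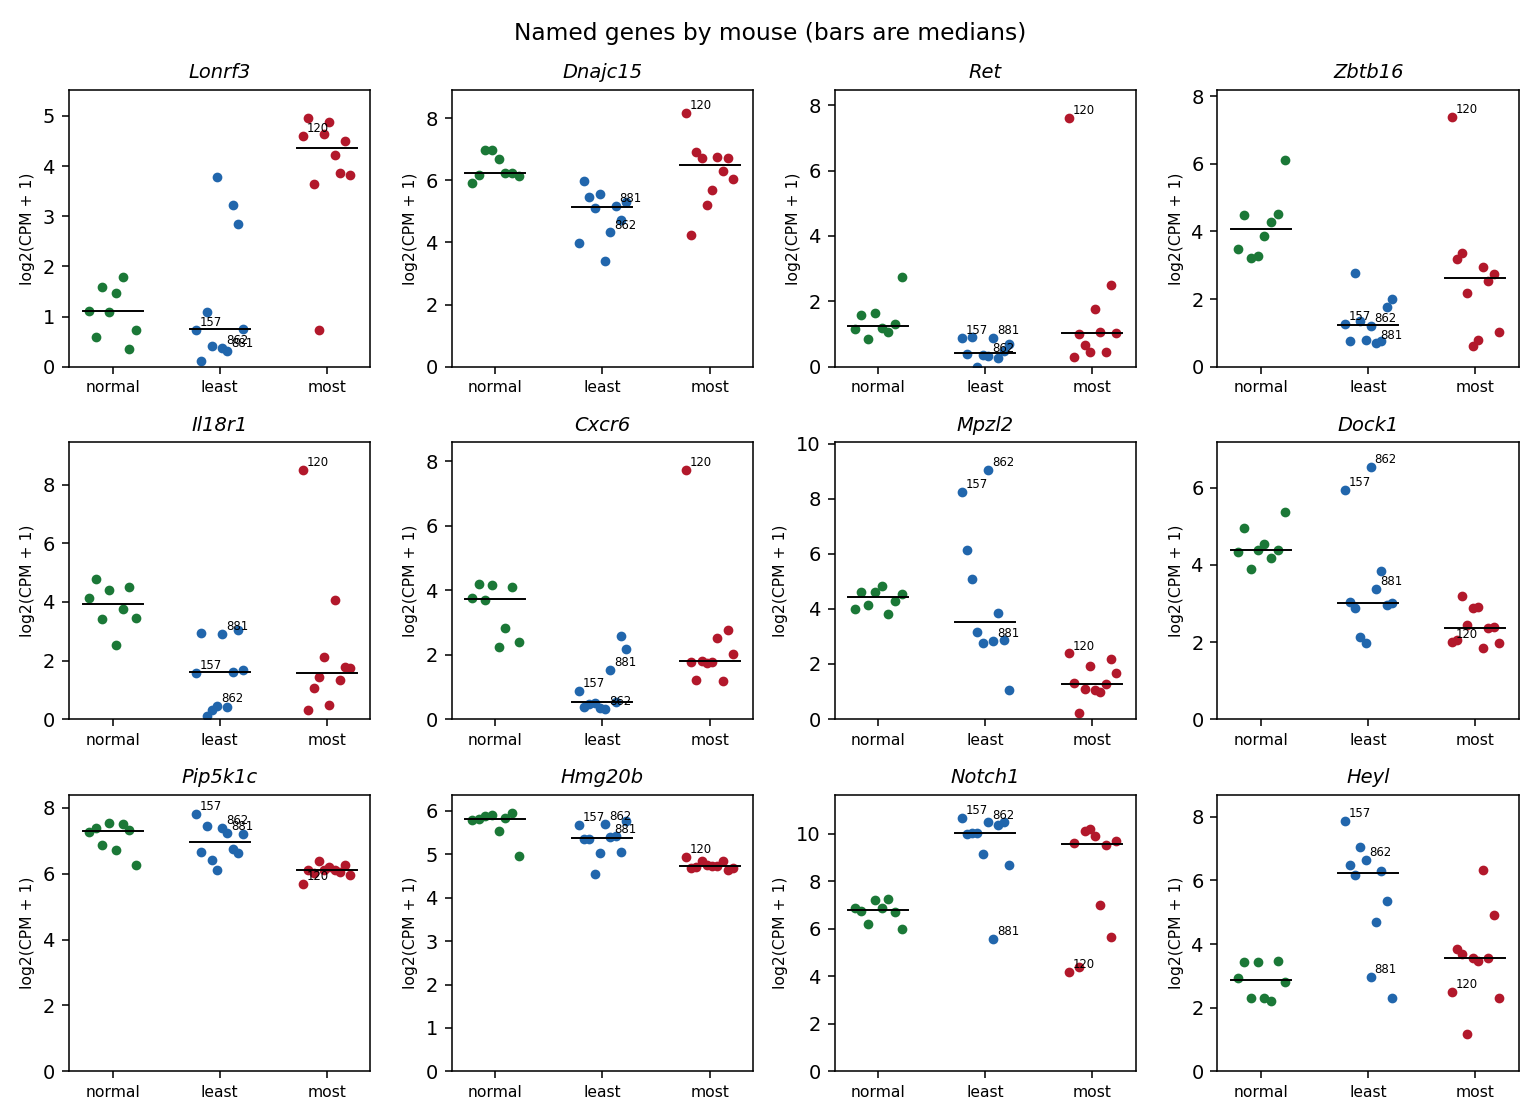
Expression, log2(CPM + 1), of 12 genes in normal thymus (8 mice) and in the least and most imbalanced sets in which each gene was tested (10 mice each); bars are medians and mice 120, 862, 157 and 881 are marked. Lonrf3 and Hmg20b separate most mice, while Ret, Zbtb16, Il18r1 and Cxcr6 are high in mouse 120 and Dock1 in mice 862 and 157.

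No gene of the pathways that handle chromosomes and their errors passed the test. None of the 22 gene lists held a called gene, against 0% of all genes. Of the 22 tested genes of the spindle checkpoint and kinetochore, which delay division until chromosomes are attached, 17 were higher and the median log2 difference was 0.14, beside -0.02 over all tested genes, of which 47.6% were higher. The list's median was 0.08 without mouse 120 and 0.07 with the labelled group as a covariate. It was 0.19 relative to each gene's own chromosome and 0.215 with sex taken from Xist and Y-linked genes. Cenpa, the histone of the centromere, was at 154, 233 and 365 CPM against 46.9, 144 and 235 CPM, 5 mice lying above all of the least (log2 difference 0.79 ± 0.28 SE, edgeR adjusted p = 0.527). Zw10 differed by 0.71, but by -0.05 without mouse 120. Centriole duplication genes had a median of -0.07, with 3 of 12 higher. It was -0.01 without mouse 120, -0.13 with the labelled group as a covariate and 0.02 relative to each gene's own chromosome. Plk4 itself was at 38.1, 63.4 and 74.7 CPM against 41.6, 55.3 and 98.3 CPM, with mouse 884 alone below all of the least (-0.09 ± 0.18 SE). Cdk5rap2, a centrosome scaffold, differed by -1.32 ± 0.49 (SE, edgeR adjusted p = 0.575), with its highest value of 422 CPM in mouse 643. Cohesin and condensin genes, which hold and compact chromosomes, had a median of 0.20, or 0.12 without mouse 862, with 15 of 19 higher. Rad21, a cohesin subunit on chromosome 15, was at 474, 787 and 1136 CPM against 320, 484 and 754 CPM, with 7 mice above all of the least (0.53 ± 0.23 SE, edgeR adjusted p = 0.682). Its difference was 0.22 with the labelled group as a covariate and 0.15 between sets picked from genes with a mean of at least 10 CPM. Ncapd3 differed by 0.94, but by -0.06 without mouse 120, which held 984 CPM of it.

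Genes of cell division came next. The DNA replication genes had the highest share on one side among the 22 pathway lists, 19 of 21 higher, with a median of 0.20. This median was 0.13 without mouse 120, 0.03 among treated mice alone and 0.30 without mouse 862. Mcm5 and Mcm4, subunits of the replicative helicase, differed by 0.39 ± 0.16 and 0.53 ± 0.22 (SE, edgeR adjusted p = 0.625 and 0.632). Without mouse 120 the values were 0.23 and 0.475. Mcm4 was highest, at 645 CPM, in mouse 497, which entered only the set picked without chromosome 16. There, 10 of the 14 nearest expressed genes were more than 2-fold above the median lymphoma (median log2 difference 1.58). This window was looked at after the value was seen, and its copy number was not tested. Mitotic cell cycle genes had a median of 0.08, 12 of 16 higher, among them Ccnb1 at 0.44 and Cdc20 at 0.35. The list's median was 0.06 with the labelled group as a covariate and 0.23 relative to each gene's own chromosome. Between the members as the rule picks them over all autosomes, Ccnb1 differed by -0.04, and with the labelled group as a covariate Cdc20 differed by 0.12. Mki67, the usual proliferation marker, was at 495, 688 and 946 CPM against 398, 768 and 875 CPM (0.03 ± 0.21 SE, and -0.01 without scaling factors). DNA damage response genes had a median of 0.01 (-0.01 without scaling factors and -0.09 without mouse 120), with 9 of 17 higher. Chek2, a checkpoint kinase encoded on chromosome 5, differed by 0.55 ± 0.19 (SE, edgeR adjusted p = 0.515) and Chek1 by 0.42.

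Of the p53 target genes, 4 of 11 were higher, with a median of -0.10 that was 0.18 without mouse 862, -0.25 without mouse 120 and -0.35 among treated mice alone. Pmaip1, a pro-apoptotic target, differed by -1.70, but by 0.09 without mouse 862, which held 58.9 CPM. Trp53inp1 differed by -1.20 ± 0.44 (SE, edgeR adjusted p = 0.575). Cdkn1a, which encodes the cell cycle inhibitor p21, was at 7.85, 14.6 and 55.98 CPM against 3.56, 14.45 and 23.5 CPM. Trp53 differed by -0.09 ± 0.30 (SE). Cdkn2a, whose product p19Arf stabilises p53, was far above normal thymus (median 1.64 CPM) in both sets, at 115, 242 and 367 CPM against 25.9, 161 and 440 CPM (0.35 ± 0.33 SE, and -0.20 among treated mice).

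Genes of stress responses often studied in aneuploid cells followed, and none of them passed the test. The cytosolic DNA sensing and interferon-stimulated genes had a median of 0.12, 10 of 18 higher, which was 0.03 without mouse 120, 0.00 without mouse 862 and 0.56 with the labelled group as a covariate. Rsad2, an antiviral enzyme, was at 2.66, 7.19 and 20.9 CPM against 1.46, 4.34 and 8.62 CPM (0.99 ± 0.38 SE, edgeR adjusted p = 0.60), and Ifit3 differed by 1.15. NF-kB genes had a median of 0.21 (0.08 without mouse 862 and 0.41 among treated mice), 7 of 10 higher, led by Traf1 at 1.09 ± 0.46 (SE, edgeR adjusted p = 0.674). Nfkbia differed by 0.35, or 0.17 without mouse 862 and 0.73 among treated mice. Proteasome subunits had a median of 0.03 (19 of 31 higher, and -0.11 among treated mice), with Psmd1 at 0.21 and Psmc3 at -0.36. Without mouse 120, Psmd1 differed by 0.33 and Psmc3 by -0.22. Heat shock and chaperonin genes had a median of 0.06 (13 of 22 higher), with Hspd1 at 0.47 and Cct5 at 0.37. This median was -0.07 without mouse 862, 0.18 without mouse 120 and 0.23 among treated mice. Genes of the unfolded protein and integrated stress responses had 0.15 (9 of 12 higher, and 0.09 without mouse 862 or 0.04 with sex by expression), with Trib3 at 0.81 and Xbp1 at -0.37. Autophagy and lysosome genes had -0.01 (5 of 12 higher, and 0.03 without mouse 120), with Gabarapl1 at 0.89 and Ulk1 at -0.69. Cytosolic ribosomal protein genes had 0.06 (51 of 81 higher, and -0.02 without mouse 120), with Rplp0 at 0.54 and Rpl37 at 0.64. Oxidative phosphorylation genes had -0.01 (37 of 80 higher, 0.00 without mouse 120 and -0.17 among treated mice), with Ndufa9 at 0.79, or -0.13 without mouse 120, and Atp5d at -0.34. Between sets picked from genes with a mean of at least 10 CPM, Trib3 differed by -0.25, Cct5 by 0.09 and Rpl37 by 0.20. The median SE of a gene was 0.22 to 0.49 over these 8 lists.

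Among the 22 pathway lists the lowest median was that of the Notch pathway, at -1.09 with 3 of 11 higher, or -0.51 without mouse 120. It was -0.93 among treated mice alone and -1.45 with the labelled group as a covariate. Notch1 is the receptor that commits thymocytes to the T lineage and is often activated in thymic lymphoma. It was at 17.5, 764 and 1184 CPM in the most and 47.4, 1039 and 1627 CPM in the least imbalanced mice, against 62.99 to 153 CPM in normal thymus. Mice 120, 266, 884 and 869 of the most imbalanced stood at 17.5 to 126.7 CPM, within or below the normal range, and in the least imbalanced set the B-lineage mouse 881 alone did. The difference was -1.24 ± 1.05 (SE, edgeR adjusted p = 0.885), with an approximate 95% interval from -3.29 to 0.81, and -0.54 without mouse 120. Heyl, a Notch target, was at 1.26, 10.9 and 79.98 CPM against 3.94, 74.2 and 232 CPM (-2.26 ± 0.83 SE, edgeR adjusted p = 0.575), and Hes1, another target, differed by -1.50 ± 0.68 (SE, edgeR adjusted p = 0.729), with both sets overlapping.

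Thymocyte stage genes had a median of -0.20, 7 of 20 higher, which was -0.02 without mouse 120, -0.44 without mouse 862 and 0.31 among treated mice alone. Lef1, a transcription factor of early T-cell development, was at 79.6, 203 and 426 CPM against 91.1, 538 and 824 CPM (-1.38 ± 0.50 SE, edgeR adjusted p = 0.568). Cd44, an adhesion receptor of early progenitors and activated cells, was at 14.3, 45.8 and 178 CPM against 6.15, 33.4 and 74.6 CPM (1.65 ± 0.54 SE, edgeR adjusted p = 0.461). MHC class I genes had a median of 0.01 (6 of 12 higher, and -0.12 without mouse 120 or -0.13 without mouse 862), with Psmb9 at -0.43 and Calr at 0.21. Calr differed by 0.38 without mouse 120 and by 0.10 with sex by expression. MHC class II genes, which mark antigen-presenting cells, had 0.00 (4 of 9 higher, 0.01 with DESeq2's size factors, 0.17 without mouse 120 and -0.19 without mouse 862), with H2-DMa at -0.47 (-0.10 without mouse 120 and -0.78 without mouse 862) and H2-Ob at -0.93, or 0.07 without mouse 881.

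Myc and its targets had a median of 0.24, 12 of 14 higher, and -0.05 among treated mice alone. Myc was at 58.4, 215 and 346.5 CPM against 84.2, 220 and 286 CPM (0.15 ± 0.33 SE), above the normal median of 51.5 CPM in all members. Cdk4, the cyclin D kinase and a Myc target on chromosome 10, differed by -0.48 ± 0.17 (SE, edgeR adjusted p = 0.568) and Nolc1 by 0.37. The lymphoma oncogenes and tumour suppressors had a median of -0.09, 10 of 22 higher. It was -0.02 without mouse 881, 0.02 among treated mice and -0.18 with sex by expression. Pvt1, the long RNA beside Myc, differed by 3.35 ± 0.76 (SE, edgeR adjusted p = 0.209), but by 0.51 without mouse 120, which held 1010 CPM against at most 13.9 CPM in the other 9. The Bcl2 family had a median of -0.19 (-0.03 among treated mice and -0.30 without mouse 862), 3 of 10 higher, with Bcl2a1b at 1.33, or 0.03 without mouse 120, and Mcl1 at -0.37. Mouse 202, outside both sets, held 127 CPM of Bcl2a1b, beside 150 CPM in mouse 120, and 76.7 CPM of Pvt1.

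**Figure D5:**
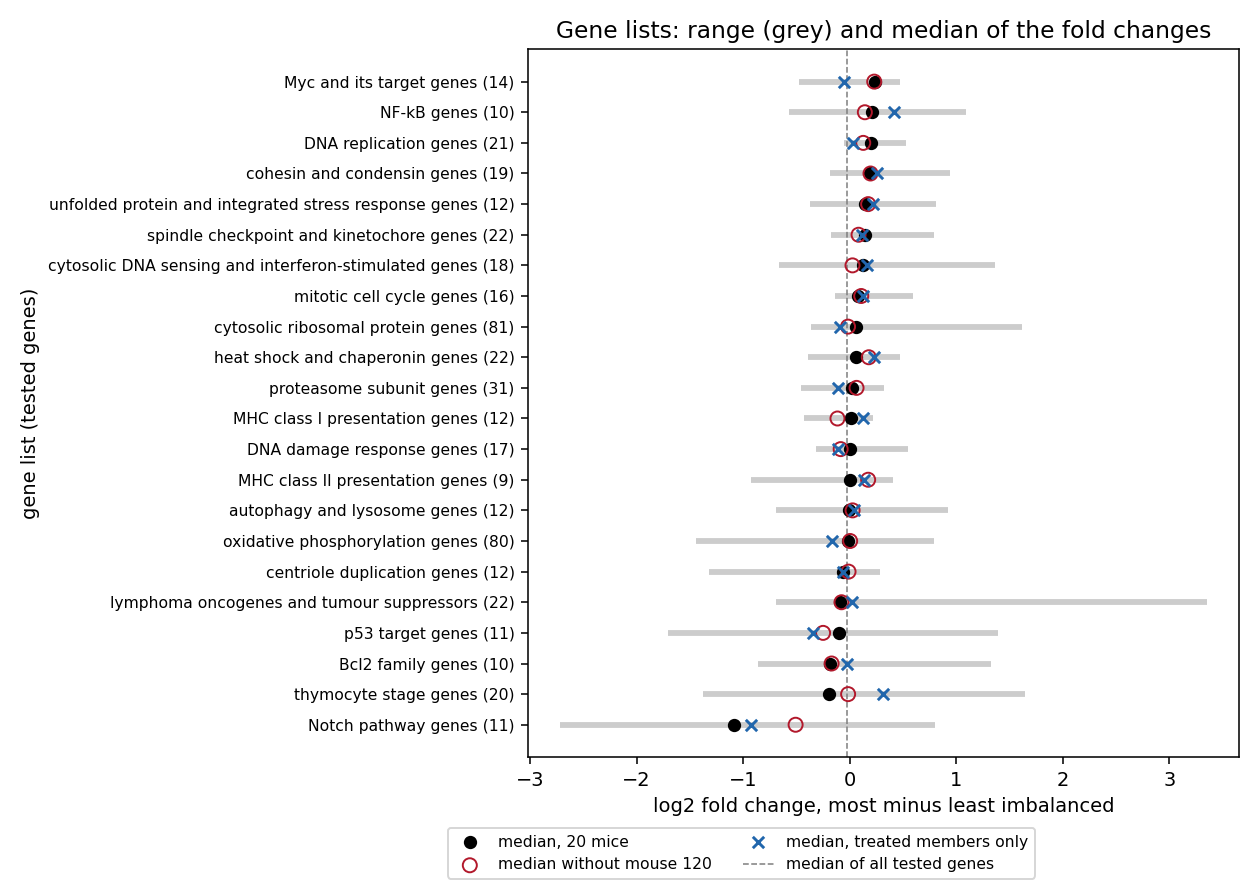
Log2 fold changes (most minus least imbalanced) of 22 gene lists: grey bars span the lowest to the highest tested gene, black points are medians of all 20 mice, open circles medians without mouse 120 and crosses medians of treated members. Most medians lie near the dashed median of all tested genes, and the Notch pathway moves from -1.09 to -0.51 without mouse 120.

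Some of the high values in mouse 120 were shared by neighbouring genes. Around Ncapd3 on chromosome 9, 8 of the 14 nearest expressed genes were more than 2-fold above the median lymphoma there, with a median log2 difference of 1.19, and around Zbtb16 7 of 14, with a median of 1.04. Over all expressed genes of mouse 120 the share was 9.69%. Around Ret and Rora, at a median of 0.06 and -0.12, neighbours were not. These genes and windows were looked at after their values were seen, and their copy number was not tested.

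The X chromosome was outside the rule. Its median over 502 genes was 0.21 ± 0.29 (SD, n = 10) in the most and 0.02 ± 0.15 (SD, n = 10) in the least imbalanced mice, a difference of 0.19 that did not pass (permutation test, two-sided, p = 0.0803). Mice 24 (0.67), 905 (0.51), 653 (0.48) and 884 (0.36) stood above every least imbalanced mouse, and all 4 were female by Xist and Y-linked genes. Among members female by those genes the difference was 0.25 (7 against 3 mice, exact permutation test, p = 0.217), and among the males -0.03 (3 against 7, exact permutation test, p = 0.833).

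The share of counts on the 13 mitochondrially encoded protein genes was 2.39% ± 1.37 (SD, n = 10) in the most and 2.47% ± 1.45 (SD, n = 10) in the least imbalanced mice (permutation test, p = 0.883), against 3.73% to 12.7% in normal thymus. Mice 562 (6.01%) and 266 (5.93%) were highest in their sets. Of the tested markers of other cell types, 6 of 6 of thymic epithelium (median log2 difference 0.99), 4 of 4 of fat (1.45) and 3 of 3 of dendritic cells (0.84) were higher in the most imbalanced mice. For these lists the median SE of a marker was 0.891, 1.002 and 0.662, and 47.6% of all tested genes were higher. With sex by expression the medians were 0.457, 1.04 and 0.677, and with the labelled group as a covariate 1.263, 2.114 and 0.989. Summed marker CPM overlapped between the sets. Medians of most and least imbalanced mice were 65.7 and 46.2 CPM (thymic epithelium), 72.5 and 63.4 CPM (fat) and 17.2 and 13.1 CPM (dendritic). Of B-lineage markers 1 of 8 (-2.80, or -1.43 without mouse 881), of erythroid markers 0 of 5 (-1.17), of macrophage markers 3 of 9 (-0.21) and of fibroblast markers 4 of 8 (-0.09) were higher. Endothelial markers had 2 of 8 higher (-0.29, or -0.09 without mouse 120) and markers of the T lineage itself 1 of 8 (-0.29, or -0.12 without mouse 120). Both tested neutrophil markers (-0.71) and the 1 natural killer marker tested (-0.81) were lower. The natural killer marker differed by -1.83 without mouse 120 and by -0.31 without mouse 862. Without mouse 120 the fibroblast median was 0.29 and the macrophage median -0.02. Among treated mice the B-lineage, macrophage and fibroblast medians were 0.47, 0.23 and 1.07. Without mouse 862 the dendritic median was 0.35 and the macrophage median -0.34. None was called by edgeR, no listed marker was at 0 in all 20 mice, and their part in the results above was not tested. The 9 macrophage markers summed to 628 to 2024 CPM in the most and 484 to 1412 CPM in the least imbalanced mice, and the 8 fibroblast markers to 209 to 2471 CPM (highest in mouse 266) and 156 to 1343 CPM. The 6 erythroid markers reached 3561 CPM in mouse 309, 3172 CPM in mouse 98 and 3095 CPM in mouse 562, and the 6 neutrophil markers 80.8 CPM in mouse 562 against at most 9.32 CPM in the most imbalanced mice. The 8 thymic epithelial markers summed to between 10.2 and 368 CPM over all members, against 115 to 2666 CPM in normal thymus. In bulk samples fewer cells of a type and less RNA per cell cannot be told apart. The share of normal tissue in each biopsy, and its part in the imbalance, was not tested.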

How the data were processed

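RNA-seq of 81 libraries from 40 mice was used. The authors deposited 1 table of RSEM expected counts per gene, not scaled between libraries, per the labels and the table's own name. The submitters' processing notes name CASAVA 1.8, fastp, STAR 2.7.2b, RSEM 1.1.17 and build mm10, and the strandedness is not given in the sources used here. Counts were rounded and biopsies of a mouse summed (library totals 1030400 to 26871729 counts). GENCODE M21 gave positions for 99.63% of 51826 gene IDs, and the others were left out. Imbalance was taken on log2(CPM + 1) over 14913 autosomal genes whose CPM averaged 1 or more. Genes were tested with edgeR 4.0.16 in R 4.3.3 (TMM, filterByExpr, robust quasi-likelihood, labelled sex), and the fitting was tested on simulated data. DESeq2 1.42.0, limma 3.58.1, other scalings, filters, covariates, sets and left-out mice were alternatives, of which those without mice 120, 562, 643, 862 or 881 or normal mouse 387, those that combine treatment or group with sex by expression, and the single-autosome tests were chosen after seeing the data. Single values were tested by permutation (100000 resamples, or all splits below 10 mice in a set).

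Named genes were the 10 protein-coding genes of lowest p in each direction (mean log2 CPM of at least 2), 2 per pathway list by p, 3 X-linked or mitochondrial genes, and 8 fixed genes, and some of these genes are not reported here. The members and lists were chosen with earlier results of these data known. The labels do not say whether mice were littermates, so p-values measure the spread between these mice.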

Additional observations from a re-analysis of the deposited data

Results flagged for a closer look

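In 11 of the 62 groups of 10 mice examined, the highest or lowest value stood apart from the others by more than Dixon's critical value of 0.466 for 10 values. Chance gives about 1 such case in 20 groups of values that were not chosen, but most genes examined were named for a low p between these sets, so the number of cases cannot be read against that rate. None of their causes was tested.

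Of these, 5 were values of mouse 120, the untreated p53-/- mouse of the most imbalanced set. There, Ret was at 193.4 CPM, Acsbg1 at 111.4 CPM, Zbtb16 at 165.8 CPM, Il18r1 at 360.8 CPM and Cxcr6 at 212.1 CPM. The mitochondrial share of mouse 562, at 6.007%, stood apart from the other least imbalanced mice. The mitochondrial share of mouse 266, at 5.934%, stood apart among the most imbalanced.

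Lonrf3 was at 0.6657 CPM in mouse 309, below the other 9 most imbalanced mice. Among the least imbalanced mice, Ifi211 was at 318.1 CPM in mouse 862. Notch1 was at 47.36 CPM in mouse 881, the mouse with high B-lineage markers, and Trp53 at 8.107 CPM in mouse 643, the mouse with the high share of ribosomal RNA reads.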

How the results depend on the processing

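Against 0 genes called, DESeq2's Wald test called 63, omitting the low-count filter 24 (of 36930 genes), omitting sex 2, using all 31 lymphoma mice 2, and treated members alone 13. Treated members without mouse 862, with sex by Xist and Y-linked genes (chosen after seeing the data), gave 1. Each of the other alternatives called 0, with 235 to 1225 genes at an unadjusted p under 0.05. No cause was tested. Of 1769 values of 71 named genes under 25 alternatives, 49 in 18 genes changed sign, 25 became called, and the others kept direction and side of the threshold.

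Among treated members, log2 differences changed sign for Zw10 (-0.122), Ncapd3 (-0.042), Ndufa9 (-0.213), Myc (-0.234), Cdkn2a (-0.197) and Mki67 (-0.136). With sex by Xist and Y-linked genes as well, they did so for Zw10 (-0.135), Ncapd3 (-0.078), Xbp1 (0.071), Ndufa9 (-0.393), Bcl2a1b (-0.06), Myc (-0.208), Cdkn2a (-0.107) and Mki67 (-0.183). Also without mouse 862, they did so for Amotl2 (0.349), Pmaip1 (0.093), Zw10 (-0.13), Ncapd3 (-0.019), Traf1 (-0.522), Ndufa9 (-0.374), Pvt1 (-0.041), Bcl2a1b (-0.303), Tceal8 (0.412), Plk4 (0.217), Cdkn2a (-0.138) and Mki67 (-0.247). Leaving out mouse 120 did so for Zw10 (-0.05), Ncapd3 (-0.061), Ndufa9 (-0.125), Myc (-0.055) and Mki67 (-0.159), mouse 862 for Pmaip1 (0.094), Tceal8 (0.027) and Plk4 (0.113), and mouse 881 for H2-Ob (0.074). Without sex, Plk4 (0.012) and Myc (-0.036) changed sign. The rule's own sets did so for Ccnb1 (-0.041) and Trp53 (0.12), sets from genes at 10 CPM or more for Trib3 (-0.249) and Mki67 (-0.007), and limma relative to the own chromosome for H2-Ob (0.3) and Trp53 (0.108). Trp53 also did with the first biopsy (0.077) and without normal mouse 387 (0.12). Mki67 did without scaling (-0.009), without the filter (-0.021), and with sex by expression (-0.047, or -0.004 with the group).

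The X chromosome difference was -0.02556 among males. The mitochondrial difference was 0.6773 percentage points among treated members and 0.07553 with the first biopsy, and that of log2 totals was 0.2611 with the first biopsy. Of the 19 autosomes, 0 passed among treated members, and 0 to 2 when each mouse was left out in turn. No paired analysis was possible because each mouse number belongs to 1 animal and the sets share none.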
